A study of Mus musculus with 12 samples.

Results

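Transcripts of 10 receptors, ligands and integrin subunits with which phagocytes take up modified lipoproteins and dead cells were followed in mouse dendritic cells. The genes were taken from a list of symbols (Msr1, Marco, Olr1, Scarb1, Mertk, Axl, Gas6, Lrp1, Itgav and Itgb5), and all 10 were present among the 11786 genes of the table. The dendritic cells had been grown from bone marrow with GM-CSF, and RNA was sequenced in 4 groups of 2 libraries, 8 in all. The groups were wild-type cells alone, wild-type cells after overnight culture with necrotic B16-OVA cells (a melanoma line carrying ovalbumin, called lysate below) and purification, cells labelled ythdf1-/- alone, and cells labelled ythdf1-/- with the same lysate. Ythdf1 encodes a reader of N6-methyladenosine on mRNA, and the labels do not say how the allele was made. They also give no age, strain or number of mice, so a p-value here reflects the spread among these libraries, which may be technical.

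Cells that clear debris recognise it in several ways. Scavenger receptors bind oxidised lipoproteins, bacterial surfaces and other polyanions directly. Dying cells expose phosphatidylserine, which Gas6 binds and bridges to the TAM receptor kinases Axl and Mertk, while the alpha v beta 5 integrin, encoded by Itgav and Itgb5, binds it through the bridging protein Mfge8. Lrp1 is a large endocytic receptor that also serves in uptake of dying cells through calreticulin. In dendritic cells this uptake feeds antigen presentation, and Axl and Mertk are known as brakes on inflammatory signalling.

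Levels below are regularized log2 values as deposited, changes are differences of group means of those values with the standard error (SE) of the limma fit, and a gene is called higher or lower where the Benjamini-Hochberg adjusted p over all 11785 genes tested was under 0.05. All 10 genes passed the filter on low values. Such log2 values are pulled together where counts are low, so changes can be understated, and with no counts the depth of the libraries is unknown. The Ythdf1 transcript itself lay at 9.58 and 9.43 in wild-type cells alone and at 9.53 and 9.43 in the KO-labelled cells alone. With lysate it lay at 9.72 and 9.58 in wild type and at 9.51 and 9.46 in KO-labelled cells. Those lysate libraries did not overlap, as for 31.0% of all genes in that direction. The transcript thus stayed at a similar level, so a whole-gene value does not check the genotype labels. Every direction between genotypes rests on those labels. In bulk RNA, fewer cells of one type and less RNA per cell cannot be told apart.

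Per kilobase of transcript, Msr1 and Axl stood highest and Itgav and Olr1 lowest. The mean over 8 libraries, less log2 of the length of the longest coding transcript, was 10.61 for Msr1 and 10.25 for Axl, above 95.3% and 93.7% of genes with a length. Itgb5 (9.14) and Lrp1 (9.12) came next on this per-kilobase scale, and their order turned with treatment. In wild type Itgb5 led alone (9.35 against 9.10) and Lrp1 with lysate (9.28 against 9.08). In KO-labelled cells Itgb5 led alone (9.17 against 8.80) and Lrp1 with lysate (9.27 against 8.96). Olr1 likewise stood above Itgav alone and below it with lysate in both genotypes. Scarb1 stood above Mertk except in KO-labelled cells alone (8.22 against 8.26). Scarb1 (8.47), Mertk (8.37), Marco (7.70), Gas6 (7.33), Olr1 (6.82) and Itgav (6.69) followed. The pair at the top changed places with the group: Axl led in wild-type cells alone (10.46 against 10.26 for Msr1), and Msr1 led in the other 3 groups.

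**Figure D1:**
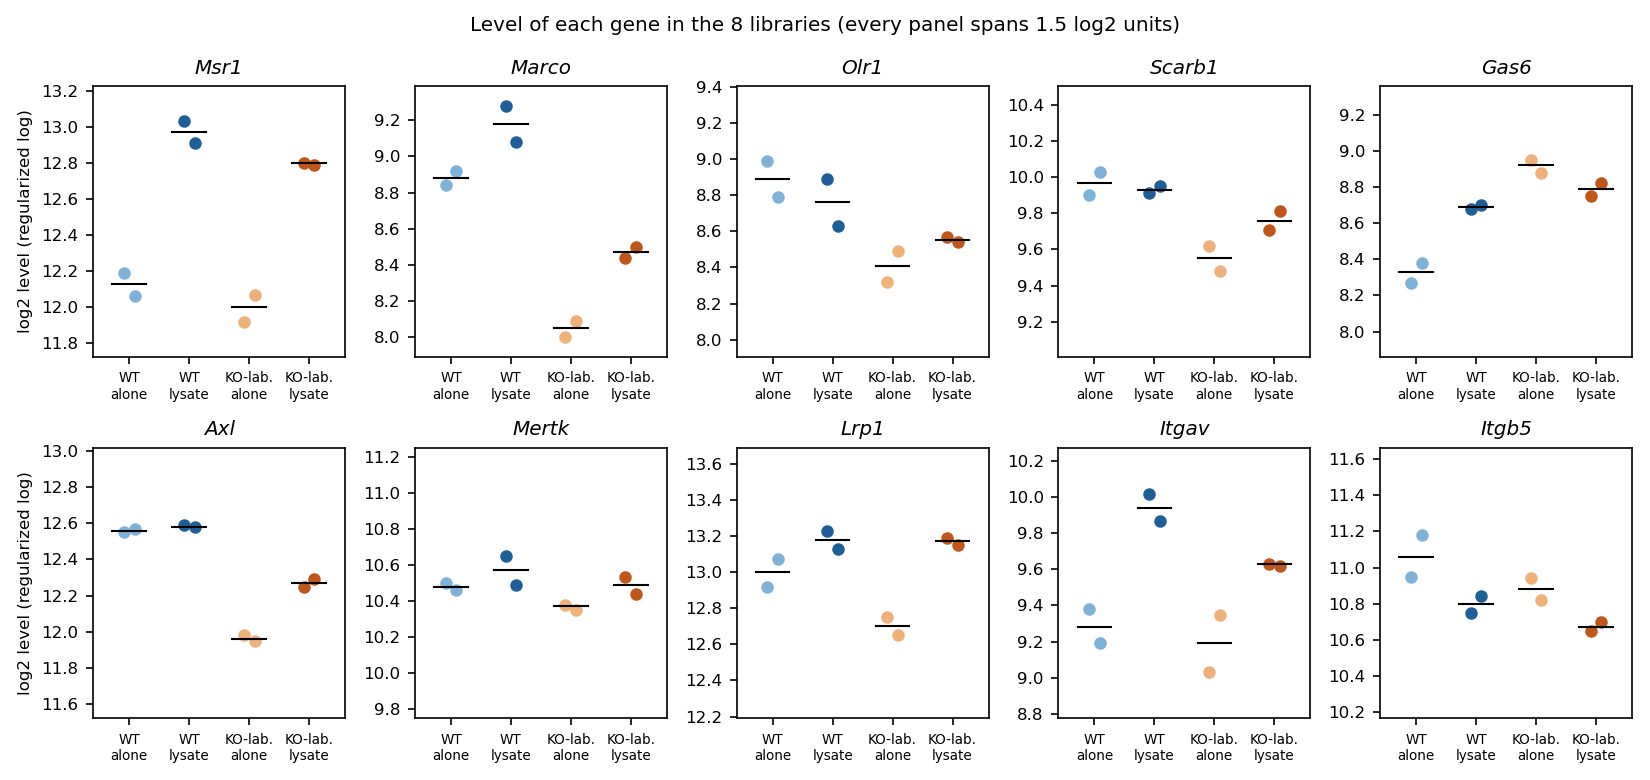
Regularized log2 level (vertical axis) of the 10 genes in wild-type (WT) and KO-labelled libraries, alone and with lysate. Points are single libraries, 2 per group, bars are group means, and each panel spans 1.5 log2 units around its own centre. Msr1 stands higher in the lysate libraries of both genotypes, Marco and Axl stand lower in the KO-labelled libraries, and Gas6 is lowest in wild-type cells alone.

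With lysate, 5 of the 10 genes changed in wild-type cells, 4 higher (Msr1, Itgav, Gas6 and Marco) and 1 lower (Itgb5). Of all genes tested 21.5% were called in this comparison, 10.2% higher and 11.3% lower. In KO-labelled cells 5 of 10 changed and all of these were higher (Msr1, Lrp1, Itgav, Marco and Axl), where 15.2% of all genes were called, 8.28% higher and 6.92% lower. The median change of the 10 genes was 0.14 in wild type and 0.26 in KO-labelled cells, against -0.010 and -0.001 over all genes. No called change of the 10 reached 2-fold, and the largest was 1.8-fold.

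Between genotype labels without lysate, 6 of the 10 genes differed. Marco, Axl, Olr1, Scarb1 and Lrp1 were lower and Gas6 was higher in the KO-labelled cells, and 16.2% of all genes were called, 9.23% lower and 7.02% higher. With lysate, 2 of 10 differed, Marco and Axl, both lower, where 12.9% of all genes were called, 7.44% higher and 5.45% lower. The change was negative for 9 of the 10 genes in each treatment, Gas6 being the exception, and the median change was -0.24 alone and -0.17 with lysate, against 0.002 and -0.008 over all genes. Averaged over the treatments, 7 of 10 were called (27.4% of all genes), 6 lower and 1 higher (13.7% of all genes in each direction), which added Msr1 at -0.15 ± 0.053 (adjusted p = 0.0464 by limma).

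Counted by whether the 2 libraries of one group lay wholly above or below those of the other, 6 of the 10 genes were higher and 1 lower with lysate in wild type, where 28.5% and 32.3% of all genes were. In KO-labelled cells 8 were higher and 2 lower with lysate (28.8% and 30.2% of all genes). With the genotype label 1 was higher and 7 were lower both alone (26.3% of all genes in each direction) and with lysate (29.5% and 31.0%).

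**Figure D2:**
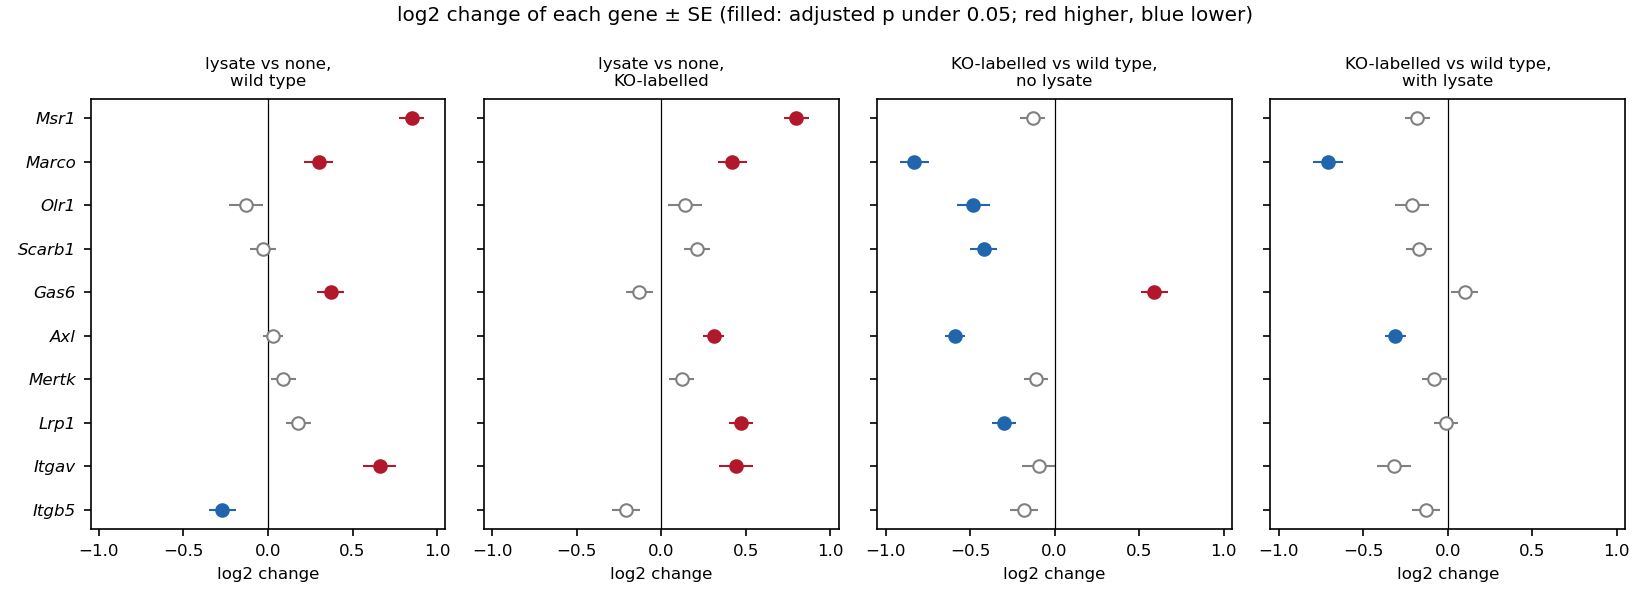
log2 change (horizontal axis) with its SE for the 10 genes in 4 comparisons. Filled points are called by limma, red higher and blue lower, and open points are not called. The rises with lysate are led by Msr1 at 0.85 and 0.80, and the deepest falls with the genotype label are those of Marco at -0.83 and -0.71.

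Msr1 (Entrez 20288), the class A scavenger receptor SR-A, carried the largest lysate change of the 10 genes in both genotypes. Its log2 level was 12.19 and 12.06 in wild-type cells alone and 13.03 and 12.91 with lysate. In KO-labelled cells it was 11.92 and 12.07 alone and 12.80 and 12.79 with lysate. Every lysate library stood above every untreated one, by more than the libraries of a group differed. The rise was 0.85 ± 0.075 in wild type (1.8-fold, adjusted p = 9.04e-06 by limma) and 0.80 ± 0.075 in KO-labelled cells (1.74-fold, adjusted p = 2.12e-05), above 99.7% of all genes in the second. These rises differed by -0.04 ± 0.11 (adjusted p = 0.946). Both calls held when any single library was left out. Between genotypes Msr1 differed by -0.13 ± 0.075 alone (adjusted p = 0.279) and by -0.18 ± 0.075 with lysate (adjusted p = 0.138). The first was called after a correction for GC content and transcript length (-0.13, adjusted p = 0.0459) and the second with a crossed replicate block (0.0307), both alternatives chosen after the data were seen.

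Marco (Entrez 17167), a class A receptor with a collagen-like stalk that binds bacteria and particles, moved with both the lysate and the genotype label. Its level was 8.84 and 8.92 in wild-type cells alone, 9.28 and 9.08 with lysate, 8.0 and 8.09 in KO-labelled cells alone, and 8.44 and 8.50 with lysate. The 4 KO-labelled libraries therefore all lay below the 4 wild-type ones. The genotype difference was -0.83 ± 0.087 alone (1.78-fold, adjusted p = 4.59e-05) and -0.71 ± 0.087 with lysate (1.64-fold, adjusted p = 0.000336), and both held without any single library. Marco rose with lysate by 0.30 ± 0.087 in wild type (adjusted p = 0.0274) and by 0.42 ± 0.087 in KO-labelled cells (adjusted p = 0.00575). The rise in wild type was no longer called on leaving out wild-type alone replicate 1 (adjusted p = 0.112) or 2 (0.0722), wild-type lysate replicate 1 (0.222) and either KO-labelled lysate library (0.051 and 0.0509), and the KO-labelled rise without KO-labelled lysate replicate 2 (0.0767).

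Olr1 (Entrez 108078), the lectin-like receptor for oxidised LDL also called LOX-1, was lower in the KO-labelled cells alone. Levels were 8.99 and 8.79 in wild-type cells alone against 8.32 and 8.49 in KO-labelled cells alone, which did not overlap. With lysate they were 8.89 and 8.63 against 8.57 and 8.54, where the lower wild-type library stood close to the KO-labelled pair. The difference was -0.48 ± 0.10 alone (adjusted p = 0.00628) and -0.21 ± 0.10 with lysate (adjusted p = 0.194). The first was not called without wild-type alone replicate 1 (-0.38, adjusted p = 0.0622). The lysate changes of Olr1 were -0.13 ± 0.10 in wild type and 0.14 ± 0.10 in KO-labelled cells, neither of them called. After the correction for GC content and transcript length the wild-type value was -0.26 and was called (adjusted p = 0.0121).

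Scarb1 (Entrez 20778), the class B receptor SR-BI that takes up cholesterol from HDL and also binds phosphatidylserine, was lower in the same untreated KO-labelled cells. It stood at 9.90 and 10.03 in wild-type cells alone, 9.91 and 9.95 with lysate, 9.62 and 9.48 in KO-labelled cells alone, and 9.71 and 9.81 with lysate. The 4 KO-labelled libraries were again below the 4 wild-type ones. The fall was 0.42 on the log2 scale alone (SE 0.078, adjusted p = 0.0028), and the value with lysate was -0.17 ± 0.078 (adjusted p = 0.162). With lysate Scarb1 changed by -0.03 ± 0.078 in wild type and by 0.21 ± 0.078 in KO-labelled cells (adjusted p = 0.0917). The latter was called after the GC and length correction (0.26, adjusted p = 0.00225) and with the crossed block (0.0217), and the genotype value with lysate after the correction (-0.20, adjusted p = 0.0131).

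Gas6 (Entrez 14456), the vitamin K-dependent ligand of the TAM receptors, was the only one of the 10 genes called higher with the genotype label. Its level was 8.27 and 8.38 in wild-type cells alone, 8.68 and 8.70 with lysate, 8.95 and 8.88 in KO-labelled cells alone, and 8.75 and 8.82 with lysate. Wild-type cells alone thus held the lowest values, and both KO-labelled libraries alone the highest. Gas6 was higher by 0.59 ± 0.079 in KO-labelled cells alone (1.51-fold, adjusted p = 0.000264), while the difference with lysate was 0.10 ± 0.079 (adjusted p = 0.454). It rose with lysate in wild type by 0.37 ± 0.079 (1.29-fold, adjusted p = 0.00576) and changed by -0.13 ± 0.079 in KO-labelled cells (adjusted p = 0.288). In the annotation an exon of Tmem255b lies opposite Gas6, and although the library kit marks strand, the strand setting of the counting is not given, so reads of the pair cannot be told apart.

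Axl (Entrez 26362), the TAM receptor whose activation depends on Gas6, ran the other way between genotypes. It lay at 12.55 and 12.57 in wild-type cells alone and at 12.59 and 12.58 with lysate. KO-labelled cells held 11.98 and 11.95 alone and 12.25 and 12.29 with lysate. Every KO-labelled library was below every wild-type one. The difference was -0.59 ± 0.061 alone (1.51-fold, adjusted p = 4.13e-05) and -0.31 ± 0.061 with lysate (1.24-fold, adjusted p = 0.00557). Axl rose with lysate in KO-labelled cells by 0.31 ± 0.061 (adjusted p = 0.00471), and its value in wild type was 0.03 ± 0.061 (adjusted p = 0.789). The call between genotypes with lysate was lost without KO-labelled lysate replicate 1 (adjusted p = 0.114), and the rise in KO-labelled cells without KO-labelled lysate replicate 2 (0.0748).

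Mertk (Entrez 17289), the TAM receptor tied to clearance of dying cells by macrophages, was called in none of the 4 comparisons, in the average over treatments (adjusted p = 0.183 by limma) or in the average over genotypes (0.126). Its 8 libraries lay between 10.35 and 10.65. The changes were 0.09 ± 0.073 and 0.12 ± 0.073 with lysate in wild type and KO-labelled cells, and -0.11 ± 0.073 and -0.08 ± 0.073 with the genotype label alone and with lysate. Its wild-type libraries overlapped between treatments, while the KO-labelled lysate libraries stood above the untreated ones.

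Gas6 and Axl were also set against each other within each library. Gas6 minus Axl was -4.27 and -4.19 in wild-type cells alone, -3.91 and -3.88 with lysate, -3.03 and -3.07 in KO-labelled cells alone, and -3.50 and -3.47 with lysate. The 4 groups did not overlap, and the untreated groups stood furthest apart, at means of -4.23 and -3.05. These differences are not corrected for transcript length, so they are read only between groups, and no test was run on them.

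**Figure D3:**
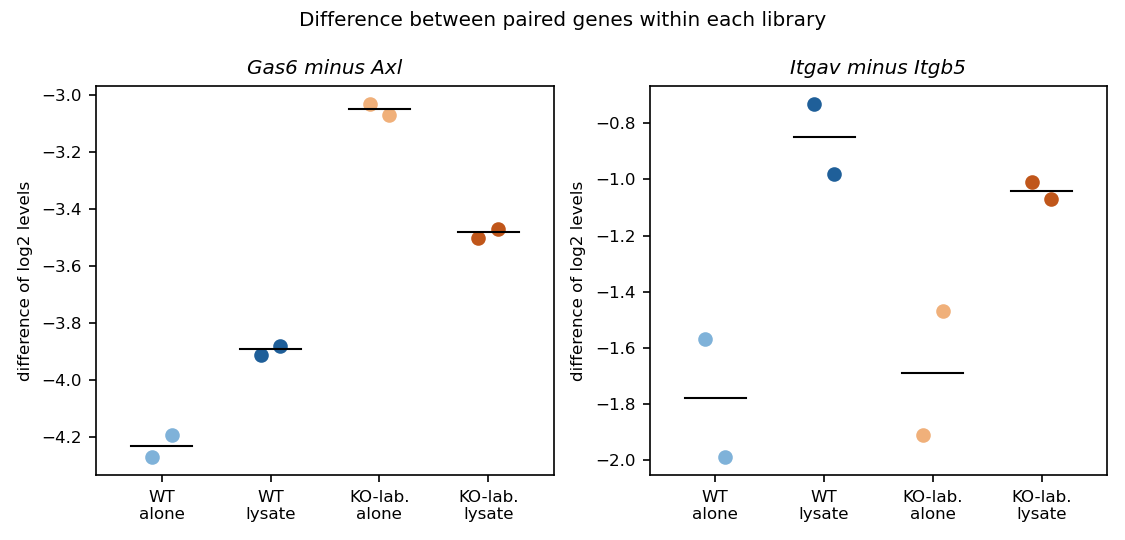
Difference of log2 levels within each library (vertical axis), for Gas6 minus Axl on the left and Itgav minus Itgb5 on the right. Points are libraries, 2 per group, and bars are group means. Gas6 minus Axl separates all 4 groups, from -4.23 in wild-type cells alone to -3.05 in KO-labelled cells alone, whereas Itgav minus Itgb5 separates lysate from no lysate.

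Lrp1 (Entrez 16971), the endocytic receptor for calreticulin and many protease complexes, rose with lysate in KO-labelled cells. It lay at 12.92 and 13.07 in wild-type cells alone, 13.23 and 13.13 with lysate, 12.75 and 12.65 in KO-labelled cells alone, and 13.19 and 13.15 with lysate. The untreated KO-labelled libraries were the lowest, and the lysate libraries of the genotypes overlapped. The rise was 0.47 ± 0.072 in KO-labelled cells (1.38-fold, adjusted p = 0.000973), and the value in wild type was 0.18 ± 0.072 (adjusted p = 0.0923). Between genotypes Lrp1 was lower by -0.30 ± 0.072 alone (adjusted p = 0.0132) and differed by -0.01 ± 0.072 with lysate (adjusted p = 0.96). The call alone was lost without wild-type alone replicate 2 (adjusted p = 0.124) or KO-labelled alone replicate 2 (0.0688), and in a fit of those groups only (0.0508). The lysate value in wild type was 0.36 and called after the GC and length correction (adjusted p = 1.6e-05), and called with the crossed block (0.0381). The genotype value with lysate was -0.18 and called after the same correction (adjusted p = 0.007).

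The integrin subunits had lysate changes of opposite sign. Itgav (Entrez 16410), the alpha v chain, stood at 9.38 and 9.19 in wild-type cells alone and at 10.02 and 9.87 with lysate. In KO-labelled cells it stood at 9.03 and 9.35 alone and at 9.63 and 9.62 with lysate, so that all 4 lysate libraries lay above all 4 untreated ones. The rise was 0.66 ± 0.10 in wild type (1.58-fold, adjusted p = 0.000824) and 0.44 ± 0.10 in KO-labelled cells (1.35-fold, adjusted p = 0.0131). The second lost its call without KO-labelled alone replicate 1 (0.28, adjusted p = 0.0937), KO-labelled lysate replicate 1 (0.114) or 2 (0.0975). Between genotypes Itgav differed by -0.09 ± 0.10 alone and by -0.32 ± 0.10 with lysate (adjusted p = 0.0619). The latter was called without any 1 of the 4 untreated libraries (adjusted p between 0.00988 and 0.0477) in a fit of the lysate groups only (0.00624), after the GC and length correction (0.00195) and with the crossed block (0.00653). The annotation places the transcript Gm13684 opposite an exon of Itgav.

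Itgb5 (Entrez 16419), the beta 5 chain, stood at 10.95 and 11.18 in wild-type cells alone, 10.75 and 10.84 with lysate, 10.94 and 10.82 in KO-labelled cells alone, and 10.65 and 10.70 with lysate. In both genotypes the lysate libraries were below the untreated ones. The fall was 0.27 on the log2 scale in wild type (SE 0.082, adjusted p = 0.035), and the value in KO-labelled cells was -0.21 ± 0.082 (adjusted p = 0.103). The wild-type call was lost without wild-type alone replicate 2 (-0.15, adjusted p = 0.339), either wild-type lysate library (0.201 and 0.0569) or either KO-labelled lysate library (0.0684 and 0.0683), with a replicate block (0.054) and without a mean-variance trend (0.0552). The KO-labelled value was called without KO-labelled alone replicate 2 (-0.27, adjusted p = 0.0496), after the GC and length correction (-0.16, adjusted p = 0.031) and with the crossed block (0.0174). Between genotypes Itgb5 differed by -0.18 ± 0.082 alone (adjusted p = 0.165) and by -0.13 ± 0.082 with lysate (adjusted p = 0.339). The correction called both (-0.20, adjusted p = 0.00798, and -0.18, adjusted p = 0.0191), and the crossed block the first (0.0374). Averaged over genotypes Itgb5 was lower by -0.24 ± 0.058 (adjusted p = 0.00691), in a comparison where 6 of the 10 genes and 34.7% of all genes were called (5 genes higher against 16.5% of all genes, 1 lower against 18.2%). Itgav minus Itgb5 ran from -1.99 to -1.47 in the 4 untreated libraries and from -1.07 to -0.73 in the 4 lysate libraries.

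**Figure D4:**
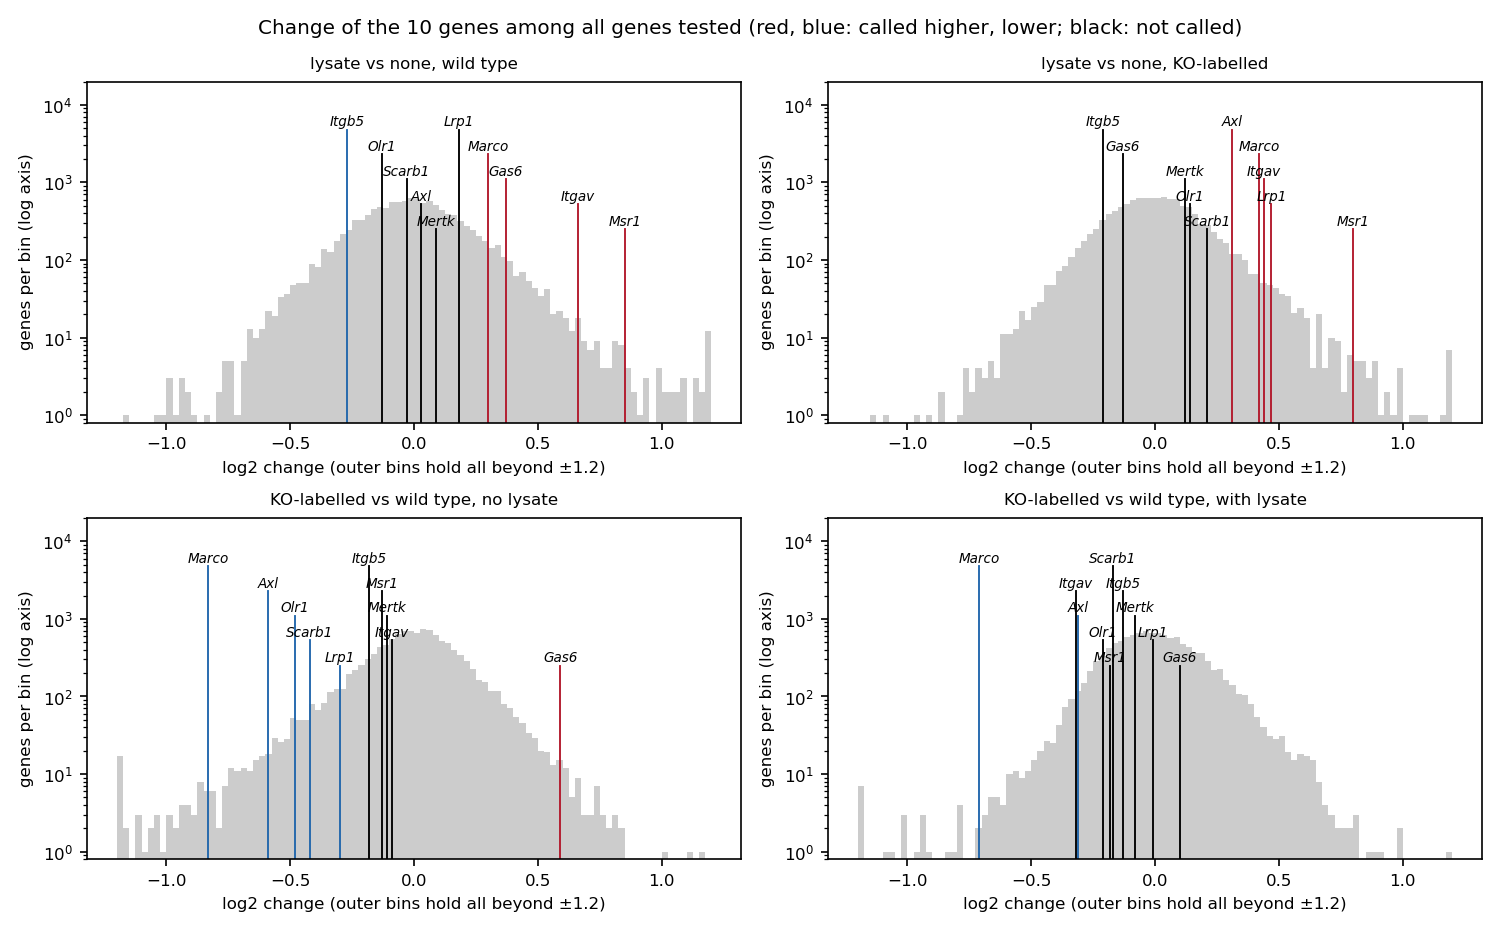
log2 change (horizontal axis) against number of genes per bin (vertical, log axis) for all genes tested in 4 comparisons, with the 10 genes as vertical lines, red or blue where called and black where not. Line heights only separate the names. Msr1 lies in the upper tail with lysate in both genotypes, Marco in the lower tail with the genotype label in both treatments, and Mertk near the centre of all panels.

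The difference of the lysate effects between genotypes was called by limma for 0 of the 10 genes, and for 0.11% of all genes. The differences with an unadjusted p under 0.05 by limma were those of Gas6, Axl, Lrp1 and Scarb1. The share of all genes under that limit was not counted, so their number is not read as a result. Gas6 had the largest of these differences, -0.50 ± 0.11 (adjusted p = 0.2 by limma), with 0.1% of genes below it. Axl differed by 0.28 ± 0.086 (adjusted p = 0.378), Lrp1 by 0.29 ± 0.10 (0.457) and Scarb1 by 0.24 ± 0.11 (0.593). The genes called between genotypes alone but not with lysate are therefore not shown to differ between the treatments.

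Promoter sequence is shown for the genes that differed between genotype labels in untreated cells and had an entry, Axl, Marco, Olr1 and Lrp1 (lower) and Gas6 (higher), to set genes that moved together beside one that moved the other way. Each run is the 250 bases before the start site, 5′ to 3′ on the gene's strand, from RefSeq on GRCm38.p6, a build that differs from the mm9 named by the submitters. The windows are chr7:25788734-25788983 (minus strand), chr1:120505025-120505274 (minus strand), chr6:129507166-129507415 (minus strand), chr10:127621149-127621398 (minus strand) and chr8:13494536-13494785 (minus strand). Capitals mark a match to the core letters bound by PU.1, a myeloid transcription factor (GAGGAA on either strand), to AP-1 (TGANTCA) or to the antioxidant response element (TGACNNNGC).
Axl: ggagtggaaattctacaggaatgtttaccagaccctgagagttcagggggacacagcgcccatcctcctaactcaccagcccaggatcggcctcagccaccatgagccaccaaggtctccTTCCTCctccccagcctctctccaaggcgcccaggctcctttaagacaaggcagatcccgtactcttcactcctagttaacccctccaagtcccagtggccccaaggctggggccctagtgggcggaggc
Marco: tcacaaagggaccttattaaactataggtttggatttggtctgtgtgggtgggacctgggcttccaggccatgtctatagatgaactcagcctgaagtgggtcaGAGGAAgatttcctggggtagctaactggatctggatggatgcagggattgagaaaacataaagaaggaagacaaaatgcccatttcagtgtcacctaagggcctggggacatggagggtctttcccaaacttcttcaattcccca
Olr1: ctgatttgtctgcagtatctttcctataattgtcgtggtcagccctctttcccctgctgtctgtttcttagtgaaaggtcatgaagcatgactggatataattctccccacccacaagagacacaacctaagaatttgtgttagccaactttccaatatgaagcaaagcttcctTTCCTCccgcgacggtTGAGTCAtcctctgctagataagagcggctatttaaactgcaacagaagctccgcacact
Lrp1: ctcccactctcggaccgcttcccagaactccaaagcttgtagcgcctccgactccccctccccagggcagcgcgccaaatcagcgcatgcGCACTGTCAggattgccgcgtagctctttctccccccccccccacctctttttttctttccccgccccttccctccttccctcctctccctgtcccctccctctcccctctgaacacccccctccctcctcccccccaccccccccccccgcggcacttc
Gas6: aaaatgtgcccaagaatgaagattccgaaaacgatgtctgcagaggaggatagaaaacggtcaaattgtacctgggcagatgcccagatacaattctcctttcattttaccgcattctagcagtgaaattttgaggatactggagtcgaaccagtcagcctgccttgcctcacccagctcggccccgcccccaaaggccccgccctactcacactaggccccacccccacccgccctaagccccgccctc

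Of the 10 genes 8 had an entry among the promoters (not Msr1 and Scarb1). GAGGAA was found in 4 of the 8 (Axl, Itgav, Marco and Olr1), and in 23.3% of all 32851 promoter windows of the same length. Lrp1, lower in the untreated KO-labelled cells, lacked it, and Itgav, which was not called there, held it at 2 places. In Olr1 it lay 76 to 71 bases before the start, next to an AP-1 match at 60 to 54, a motif that 1 of 8 genes and 6.75% of all windows held. Of the 8 only Lrp1 held the antioxidant response element (10.2% of all windows). The interferon-stimulated response element (ISRE) and the E-box CACGTG were in 0 of the 8 windows, and in 2.98% and 6.02% of all. Both strands were searched, and a match is a description of letters, not a bound site.

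Among other genes of debris uptake, taken as lists, further scavenger receptors rose with lysate more often than they fell. Of 14 measured, 5 rose and 2 fell in wild type (median 0.06), where 10.2% of all genes rose and 11.3% fell (median -0.010). In KO-labelled cells 7 rose and 1 fell (median 0.22), against 8.28% and 6.92% of all genes (median -0.001). Cd36, a lipid and thrombospondin receptor, rose by 1.85 ± 0.096 in wild type and by 1.36 ± 0.096 in KO-labelled cells, both larger than any change of the 10 genes. Mrc1, the mannose receptor (0.86 and 0.55), Cd68, a lysosomal scavenger receptor (0.77 and 0.61), and Cd93 (0.32 and 0.60) rose in both. With the genotype label alone 3 were lower (median -0.04), among them Cd93 (-0.49), and with lysate 1 was, where 9.23% and 5.45% of all genes were lower. Msr1 and these receptors were not compared by a test.

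Other receptors and bridging proteins for dying cells were lower with the genotype label in 6 of 16 cases and higher in 1 without lysate (median -0.12), and in 4 and 1 with lysate (median -0.15). Over all genes 9.23% were lower and 7.02% higher alone (median 0.002), and 5.45% and 7.44% with lysate (median -0.008). Cd14, a co-receptor for endotoxin and dying cells, was lower by -0.64 ± 0.069 alone and -0.24 ± 0.069 with lysate, and the phosphatidylserine receptor Cd300lf by -0.50 and -0.22 (SE 0.065). Havcr2, which encodes TIM-3, was lower alone (-0.32 ± 0.074). With lysate 4 rose and 2 fell in wild type, and 5 rose and 1 fell in KO-labelled cells, with Anxa1 (0.65 and 0.59), Havcr2 (0.47 and 0.64) and Cd300lf (0.23 and 0.50) among the rises, while Cd14 fell in wild type (-0.54). Over all genes 10.2% rose and 11.3% fell in wild type, and 8.28% and 6.92% in KO-labelled cells.

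In the engulfment machinery, which remodels actin around a bound particle, 3 of 14 genes were lower with the genotype label alone and 2 with lysate, beside 9.23% and 5.45% of all genes. Rac2, the haematopoietic Rac GTPase, was lower by -0.55 ± 0.068 and -0.42 ± 0.068, and Dock5 by -0.49 and -0.23 (SE 0.072). Vav1, an exchange factor for Rac, was lower alone (-0.29). With lysate 1 of 14 rose (Vav3, 0.26) and 1 fell (Dock5, -0.26) in wild type, shares below the 10.2% and 11.3% of all genes.

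Partners of Lrp1 and the Cd47 and Sirpa pair rose with lysate in 5 of 11 cases and fell in 2 in wild type, and rose in 4 and fell in 1 in KO-labelled cells, beside 10.2% and 11.3% of all genes in wild type and 8.28% and 6.92% in KO-labelled cells. Dab2, an endocytic adaptor, rose by 0.64 and 0.53 (SE 0.080), Lrp12 by 0.62 and 0.35 and Lrp8 by 0.31 and 0.55. Calr, which encodes calreticulin, rose with lysate in wild type (0.53), and its change in KO-labelled cells was 0.20 and not called. The difference of these lysate effects was not called (-0.33 ± 0.098, adjusted p = 0.347 by limma). Among the lysate libraries Calr was lower with the genotype label (-0.43 ± 0.070). Lrp8 was higher with the genotype label in both treatments (0.35 and 0.58).

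Genes of TAM shedding and feedback were lower in 3 of 8 cases in KO-labelled cells alone, beside 9.23% of all genes. Adam17, the protease that sheds Mertk, was lower alone (-0.44 ± 0.070) and with lysate (-0.32 ± 0.070). Vkorc1, which regenerates the vitamin K needed to make active Gas6, was lower alone (-0.40 ± 0.098). Of 6 further integrin subunits and cofactors, none was called by limma with lysate in wild type, beside 21.5% of all genes. Itga5, the alpha 5 chain and not a partner of alpha v, changed by 0.10 and Itgb8 by -0.24. In KO-labelled cells 2 of 6 were called, Itga5 higher (0.28 ± 0.070) and Itgb8 lower (-0.40 ± 0.10, at a low mean level of 5.0). Over all genes 8.28% were higher and 6.92% lower with lysate in those cells. The cofactors Tln1 and Fermt3 were lower with the genotype label alone (-0.28 each), 2 of 6 beside 9.23% of all genes.

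Lipid-sensing nuclear receptors rose in 2 of 9 cases with lysate in each genotype, beside 10.2% of all genes in wild type and 8.28% in KO-labelled cells. These were Pparg (0.54 and 0.34) and Nr1h3, which encodes LXR alpha (0.37 and 0.41), and Rxrb fell in wild type (-0.41). Soat1, which esterifies cholesterol, rose in both genotypes (0.46 and 0.30), the 1 of 6 genes for HDL and cholesterol export to do so. In each genotype 1 of the 6 fell, Abca7 in wild type (-0.33) and Abcg1 in KO-labelled cells (-0.26). Over all genes 11.3% fell in wild type and 6.92% in KO-labelled cells. At these list sizes a single gene moves the share past that of all genes.

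**Figure D5:**
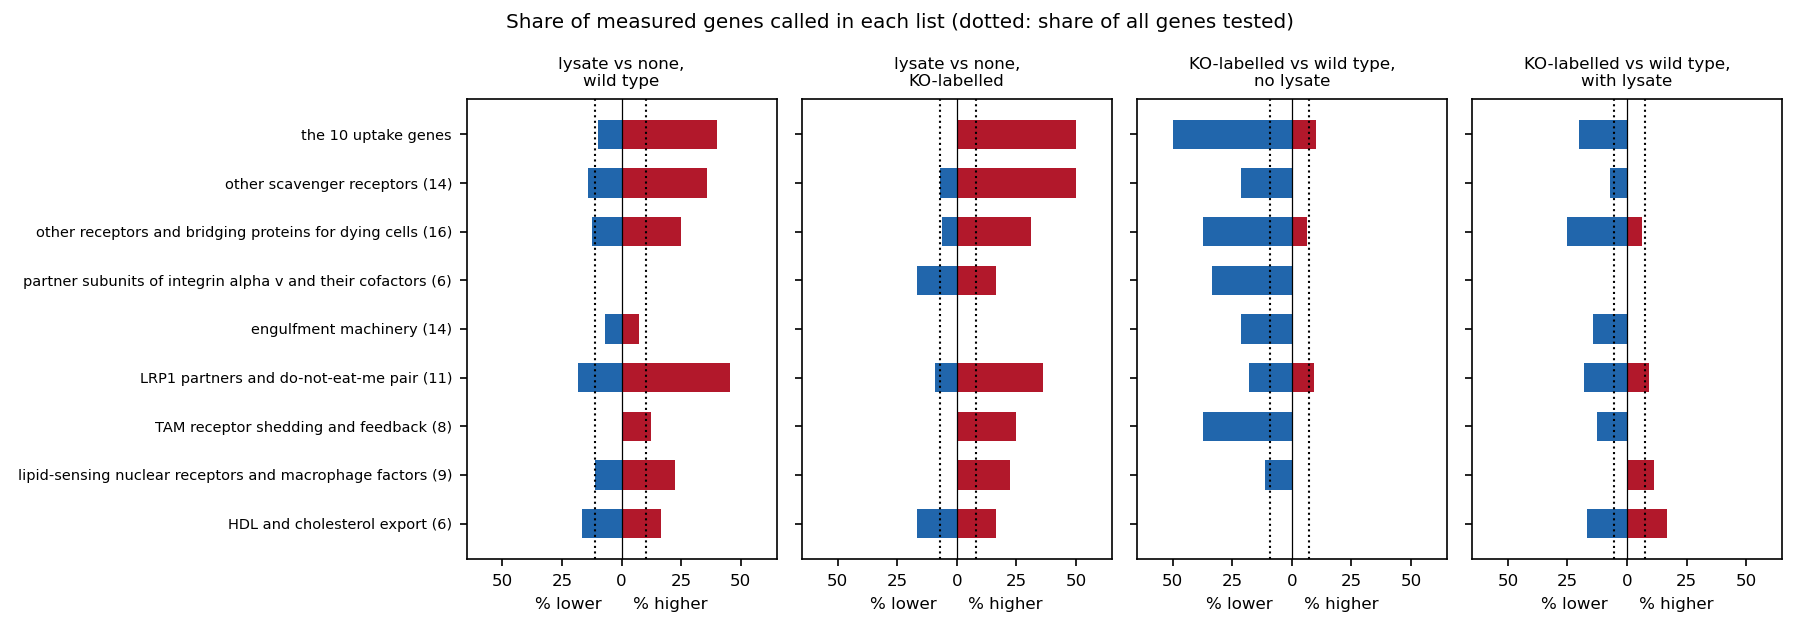
Share of measured genes called lower (blue, left) or higher (red, right), in percent, for the 10 uptake genes and 8 further lists, with the number of measured genes in brackets. Dotted lines give the share of all genes tested. The lists hold 6 to 16 genes, so 1 gene moves a bar by a wide margin, and no list was tested as a set.

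Markers of other cells moved with the same contrasts. Pigment cell genes, listed as markers of the added melanoma cells, rose with lysate in 5 of 5 measured cases in each genotype. Beside them 10.2% of all genes rose in wild type and 8.28% in KO-labelled cells. Of the 12 listed, Tyr, Mlana, Sox10, Mc1r, Oca2, Trpm1 and Slc24a5 were not in the table. The summed level of the 5 measured genes was 10.00 to 10.12 (log2) in wild-type cells alone and 10.45 to 10.56 with lysate, and 9.80 to 9.96 and 10.39 to 10.45 in KO-labelled cells. Between 81.3% and 90.0% of that sum was Mitf, which also stood high in cells without lysate and rose by 0.38 and 0.45. The other 4 genes summed to 6.79 to 6.80 in wild-type cells alone, 7.63 to 7.74 with lysate, 6.84 to 6.85 in KO-labelled cells alone and 7.86 to 7.98 with lysate. Dct, which makes melanin, reached 5.80 and 5.95 in wild-type lysate libraries. How much melanoma RNA adds to the 10 genes was not tested.

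With the genotype label, 10 of 11 measured neutrophil markers were lower alone and 10 with lysate, beside 9.23% and 5.45% of all genes. Ly6g was not in the table. The summed neutrophil level was 14.22 to 14.27 in wild-type cells alone, 13.92 to 14.17 with lysate, 12.75 to 12.85 in KO-labelled cells alone and 12.67 to 12.78 with lysate. Of 15 macrophage and monocyte markers 9 were lower alone and 5 with lysate, beside the same 9.23% and 5.45% of all genes. In either treatment 0 of these markers were higher, beside 7.02% of all genes alone and 7.44% with lysate. Adgre1, which encodes F4/80, was lower alone by -0.44 ± 0.065 and Csf1r by -0.45 ± 0.068, whereas C1qb (-0.02) and Cd163 (0.04, with a mean level of 4.19) were not called. The summed macrophage level was 17.72 to 17.73 in wild-type cells alone, 17.51 to 17.52 with lysate, 17.23 to 17.27 in KO-labelled cells alone and 17.21 to 17.26 with lysate. Lyz2, which neutrophils also express, made up 66.8% to 72.6% of that sum. The other 14 markers summed to 15.86 to 15.93, 15.76 to 15.79, 15.59 to 15.67 and 15.59 to 15.64 in the same order of groups. With lysate, 7 of the 15 were lower and 3 higher in wild type, and 1 lower and 2 higher in KO-labelled cells. Over all genes 11.3% were lower and 10.2% higher in wild type, and 6.92% and 8.28% in KO-labelled cells. Vsig4 was not in the table.

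Conventional dendritic cell markers went the other way with the genotype label, 5 of 10 higher and 1 lower alone and 6 higher and 0 lower with lysate. Over all genes 7.02% were higher and 9.23% lower alone, and 7.44% and 5.45% with lysate. Flt3 (0.41 ± 0.073) and Zbtb46 (0.42 ± 0.078) were higher and Itgax was lower (-0.33 ± 0.078) in KO-labelled cells alone, and Xcr1 and Cd209a were not in the table. Their summed level was 15.47 to 15.57 in wild-type cells alone, 15.28 to 15.37 with lysate, 15.70 to 15.83 in KO-labelled cells alone and 15.64 to 15.65 with lysate. With lysate 4 of 10 were lower and 0 higher in each genotype. Neutrophil markers were lower with lysate in 3 of 11 cases in wild type and 2 in KO-labelled cells. Over all genes 11.3% were lower and 10.2% higher with lysate in wild type, and 6.92% and 8.28% in KO-labelled cells. Of 8 stroma markers 2 were in the table, Col1a1 and Col1a2, and both were lower with lysate in wild type (-0.78 and -0.53) and with the genotype label alone (-0.62 and -0.51). The part of these markers in the lysate changes of Msr1, Itgav and Marco, and in the genotype differences, was not tested.

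The 4 of the 10 genes that varied most between groups were Msr1, Marco, Axl and Itgav, by limma's moderated F. The likest patterns over the 8 libraries, by mean absolute difference after subtracting each gene's own mean, were those of Gpsm2 (0.046), Flrt2 (0.057) and Pdia4 (0.059) for Msr1. Ear6 (0.089), Klk1b11 (0.095) and Acod1 (0.097) came nearest to Marco. Axl was nearest to 6430548M08Rik (0.028), Zbp1 (0.034) and Tirap (0.040), and Itgav to Tmem65 (0.037), Rab1a (0.038) and Sypl (0.041). Ear6 belongs to a family of near-identical genes and Klk1b11 to another, so their values are uncertain.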

How the data were processed

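RNA-seq values of 8 of the 12 samples were analysed, and the 4 immunoprecipitation samples were not analysed here. Titles gave the group and replicate number. The values deposited by the authors are on a log2 scale, taken to be the regularized logarithm of DESeq2 per Entrez gene. This was inferred from the name of the table and the tools (STAR, deepTools, DESeq2) and build (mm9) listed per the submitters' processing notes. No source used here gives the counting tool, strand setting or annotation. Library medians lay between 8.53 and 8.55. With no counts, depth is unknown.

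Symbols came from RefSeq GRCm38.p6 (11744 of 11786 identifiers matched). Transcript lengths were those of GENCODE transcripts (97.5% of genes). Tests covered the 11785 genes with a group mean of 4 or more, using limma 3.58.1 in R 4.3.3 (group means of 8 libraries in 1 fit, eBayes with a mean-variance trend, two-sided, Benjamini-Hochberg over all genes, threshold 0.05, 4 residual and 9.33 prior degrees of freedom), after the code was tested on simulated data. The planned protein features were not used here. Figures were drawn with Python 3.11.15.

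The genes and lists were chosen with earlier results of these data known. Genes named are the 10, up to 4 per list with the smallest p, markers, and the 3 nearest patterns of the 4 genes with the largest F. Some genes of the lists are not reported here. Alternatives were a replicate block, other filters, median centring, quantile normalization, other variance models, separate fits per comparison, and omission of each library in turn, in which the remaining library of a group borrows the spread of the rest. A correction for GC content and transcript length, and a crossed replicate block, were added after the data were seen. The crossed block swapped the replicate numbers of the untreated KO-labelled libraries only. Their same-numbered deviations had correlated at -0.61 with those of untreated wild type. A block set by deviations of the same libraries can take up spread by its making, so calls it adds are not separate support.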

Additional observations from a re-analysis of the deposited data

Results flagged for a closer look

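Gas6 moved in opposite directions with lysate in every library of the genotypes. Both wild-type lysate libraries stood above both untreated ones, as for 28.5% of all genes. Both KO-labelled lysate libraries stood below both untreated ones, as for 30.2% of all genes. The KO-labelled change was not called (-0.13 ± 0.079, adjusted p = 0.288 by limma). The difference of these effects was -0.50 ± 0.11 on the log2 scale and was not called (adjusted p = 0.2 by limma). It kept its sign under all 17 alternatives run for it, with values from -0.55 to -0.44. Its adjusted p ranged from 0.00885 to 0.88 over them. It was called under the 2 alternatives chosen after the data were seen, the correction for GC content and transcript length (0.00885) and the crossed replicate block (0.0335), and the highest value came without KO-labelled lysate replicate 1.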

How the results depend on the processing

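Of the 18 called changes among 50 tested (10 genes, 5 comparisons), 10 kept their call and direction under all alternatives run, and none reversed. Without 1 library, the number of genes called ranged from 3 to 5 for lysate in wild type, 2 to 6 for lysate in KO-labelled cells, 5 to 6 between genotypes alone, 1 to 3 between genotypes with lysate, and stayed at 0 for the difference of lysate effects. The number called over all genes also changed with the library left out. Filters, centring, quantile normalization and variance models moved none of the counts for the 10 genes by over 1.5 times. Replicate numbers are shared between groups, with nothing to say what a number marks: the correlation of same-numbered deviations ran from -0.61 (untreated wild type and KO-labelled) to 0.26. The replicate block lost 1 call, Itgb5 with lysate in wild type (-0.27, adjusted p = 0.054). Between genotypes with lysate, 6 genes were called after the GC and length correction and 4 with a crossed replicate block, all lower. Calls over all genes in that comparison rose as well, from 1519 to 2684 with the correction and to 2638 with the crossed block. For the difference of lysate effects 1 gene (Gas6) was called under each. The crossed block follows deviations of these same libraries, so the calls it added are not separate support. The cause of the rise after the GC and length correction was not tested. Over all genes, the calls for the difference of lysate effects fell from 13 to 1 with the replicate block or without a mean-variance trend, and rose to 114 after the GC and length correction.

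Signs reversed for values near 0 that were not called. Lysate in wild type gave 0.0051 for Olr1 without wild-type lysate replicate 2, and for Scarb1 0.03 without wild-type alone replicate 2 and 0.025 after the GC and length correction. Itgav between genotypes alone gave 0.0054 without wild-type alone replicate 1 and 0.066 without KO-labelled alone replicate 1. Lrp1 between genotypes with lysate gave 0.044 under quantile normalization, 0.04 without wild-type lysate replicate 1 and 0.013 without KO-labelled lysate replicate 2, while the GC and length correction gave -0.18 and a call (adjusted p = 0.007). The difference of lysate effects gave, for Msr1, 0.018, 0.015 and 0.03 without wild-type alone replicate 2, wild-type lysate replicate 1 and KO-labelled alone replicate 2, and 0.013 after that correction. It gave -0.05 and -0.016 for Mertk without wild-type lysate replicate 2 and KO-labelled lysate replicate 1, and -0.056 and -0.0037 for Itgb5 without wild-type alone replicate 2 and KO-labelled alone replicate 2. Over all omissions of 1 library, these values ranged from -0.26 to 0.0051 (Olr1), -0.1 to 0.03 (Scarb1), -0.25 to 0.066 (Itgav), -0.056 to 0.04 (Lrp1), and for the difference of lysate effects -0.12 to 0.03 (Msr1), -0.05 to 0.11 (Mertk) and -0.056 to 0.17 (Itgb5).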
